A study of Mus musculus with 17 samples.

Results

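Myb, E2F and Rb family genes, which link the cell cycle to the choice between proliferation and differentiation, were followed across 5 sorted fractions of mouse bone marrow. The genes were Myb, Mybl2, E2f1, E2f2, E2f3, E2f4, E2f8, Rb1, Rbl1 and Rbl2, and every probe set annotated with 1 gene symbol equal to a listed name was taken, whatever its values. That gave 23 of the 45037 probe sets of the array other than controls, and 10 of the 18193 genes named by 1 symbol. A probe set is the group of short probes that reads 1 transcript on an Affymetrix array. Where a gene had several, the one with the highest mean over all arrays is called its leading probe set, and values are of that probe set unless another is named.

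Expression was measured on 17 Affymetrix 3-prime arrays of RNA from cells sorted from the bone marrow of adult mice aged 10 to 14 weeks, with no treatment or mutation named in the labels. CLP, the common lymphoid progenitors, were gated as Lin-Sca1lowKitlowIL7r+Flk2+ (3 arrays). MkP, the megakaryocyte progenitors, were gated as Lin-Sca1-Kit+Itga2b+Slamf1+ (3 arrays). PreCFUE, an early erythroid stage, were Lin-Sca1-Kit+Itga2b-FcgRlowSlamf1+Enghigh (3 arrays). PreMegE, from which megakaryocytes and red cells are thought to arise, were Lin-Sca1-Kit+Itga2b-FcgRlowSlamf1+Englow (5 arrays). PreGM, directed to granulocytes and monocytes, were Lin-Sca1-Kit+Itga2b-FcgRlowSlamf1-Englow (3 arrays). No label states that replicate arrays were hybridised with RNA of different animals or sorts. The p-values therefore describe how far these arrays scatter, and that scatter may be technical. A free-text field of all 17 arrays names a stem cell gate that conflicts with the gates in the titles, and the titles were used. In RNA of a sorted population, fewer cells of a type and less RNA per cell cannot be told apart.

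Myb encodes c-Myb, a DNA-binding activator needed for definitive blood formation, whose level falls as most blood lineages mature and which holds back megakaryocyte formation in mice. Mybl2 encodes B-Myb, which joins the MuvB proteins to switch on genes of G2 and mitosis. E2F factors bind DNA with a DP partner: E2f1, E2f2 and E2f3 mainly activate genes of DNA replication, E2f4 acts mainly in repressor complexes of resting cells, and E2f8 is an atypical E2F that represses without a DP partner and, in mice, takes part in the endoreplication of large polyploid cells. Rb1 encodes the retinoblastoma protein, and Rbl1 and Rbl2 encode its relatives p107 and p130. These pocket proteins bind E2F factors and hold their targets off until cyclin-dependent kinases phosphorylate them, and p107 or p130 joined to E2F4 and MuvB forms the DREAM repressor.

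Promoters were searched for letters that E2F, MuvB and Myb proteins are known to bind. RefSeq promoters (mouse build GRCm38.p6), which run from 250 bases before to 50 after the start of a gene, were found for 8 of the 10 genes, in 10 promoters; E2f4 and Rb1 had no entry. They were searched on both strands for the E2F motif (TTTCCCGC or TTTGGCGC), the shorter E2F core (GGCGGGA), the cell cycle homology region or CHR through which MuvB complexes bind (TTTGAA) and a Myb motif (TAACNG). The E2F core overlaps the first form of the E2F motif. Of 32851 mouse promoters of this length, 1.56% held the E2F motif, 11.3% the core, 17.9% the CHR and 23.3% the Myb motif. Among the 8 genes, 2 held the E2F motif (E2f2 and E2f3), 3 the core (Myb, Mybl2 and E2f3), 4 the CHR (E2f2, E2f3, E2f8 and Rbl2) and 3 the Myb motif (Mybl2, E2f2 and Rbl1). E2f2 and E2f3 each had 2 promoters, and a motif in either was counted. The CHR of both lay in promoter 2 and not in promoter 1. Promoter 2 of E2f2 lies downstream of its promoter 1 (from chr4:136180532 and chr4:136172024). The E2f1 sequence searched held none of the 4. E2f1 sequence outside that stretch was not searched, so whether other E2f1 start regions hold these letters was not tested. Those of Mybl2, Myb, E2f3 and E2f8 are shown because these genes differed most between fractions or carry the motifs closest to the start of the gene. Capitals mark E2F motifs and cores and the CHR.
Mybl2, chr2:163054385-163054684, plus strand: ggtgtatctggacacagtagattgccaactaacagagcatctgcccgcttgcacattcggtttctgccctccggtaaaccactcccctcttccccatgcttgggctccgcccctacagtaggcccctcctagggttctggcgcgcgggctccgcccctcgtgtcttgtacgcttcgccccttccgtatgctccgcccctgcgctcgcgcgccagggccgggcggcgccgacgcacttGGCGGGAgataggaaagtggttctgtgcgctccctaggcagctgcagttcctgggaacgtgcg
Myb, chr10:21160935-21161234, minus strand: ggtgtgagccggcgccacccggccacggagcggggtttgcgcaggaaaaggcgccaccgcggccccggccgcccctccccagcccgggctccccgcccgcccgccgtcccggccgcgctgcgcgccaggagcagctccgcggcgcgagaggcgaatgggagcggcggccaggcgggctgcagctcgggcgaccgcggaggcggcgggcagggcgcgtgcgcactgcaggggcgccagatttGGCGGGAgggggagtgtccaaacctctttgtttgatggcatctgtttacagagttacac
E2f3 promoter 2, chr13:29986014-29986313, minus strand: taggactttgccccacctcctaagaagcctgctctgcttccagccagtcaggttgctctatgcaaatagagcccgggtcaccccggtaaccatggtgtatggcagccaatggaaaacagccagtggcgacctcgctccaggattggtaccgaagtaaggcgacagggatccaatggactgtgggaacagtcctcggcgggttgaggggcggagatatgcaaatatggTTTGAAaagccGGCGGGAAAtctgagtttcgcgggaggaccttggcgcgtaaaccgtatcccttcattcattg
E2f8, chr7:48881547-48881846, minus strand: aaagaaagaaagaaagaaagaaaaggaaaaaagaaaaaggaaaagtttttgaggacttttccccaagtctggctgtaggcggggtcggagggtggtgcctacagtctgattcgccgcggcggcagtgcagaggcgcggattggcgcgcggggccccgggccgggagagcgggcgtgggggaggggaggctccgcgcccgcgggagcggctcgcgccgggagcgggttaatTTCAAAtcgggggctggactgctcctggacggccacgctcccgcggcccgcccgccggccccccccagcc
The core began 13 bases before the start in Mybl2 and 9 before it in Myb. In E2f3 promoter 2 the E2F motif and core together began 12 bases before the start, with a CHR at 23 before it, and in E2f8 the CHR lay 20 bases before the start. A match is a match of letters and not a shown binding site.

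All 4 markers listed for each of the 5 fractions differed among fractions. Of each 4, all were highest in their own fraction for CLP, MkP, preCFUE and preGM, and 2 for preMegE (Gata2 and Slamf1). Some of these markers are gate genes: Il7r and Flt3 (Flk2) for CLP, Itga2b for MkP and Slamf1 for preMegE. The sort selected on their proteins, so their levels are no independent check of the fractions. Gata1 averaged 1400 in preCFUE and 1219 in preMegE, and Zfpm1 903 in MkP and 648 in preMegE. Pf4 (platelet factor 4) averaged 6431 in MkP, Rag1 1127 in CLP, Mpo 7503 in preGM, and Klf1 was highest in preCFUE at 2917. CLP replicate 2 had a mean correlation of 0.962 with preGM arrays and 0.948 with its 2 fellow CLP arrays, the only array of the 17 closer to another fraction, so CLP calls of the leading probe sets are also given without it. The log2 ratio of the 3-prime to the 5-prime control probe set of Gapdh, which goes up as RNA is shortened, ran from 2.72 to 5.12 over the arrays and was 5.12, 3.00 and 4.08 in CLP replicates 1 to 3. Markers of neutrophils summed to between 61.5 and 150.5 in CLP arrays, 97.3 and 1256 in MkP, 177 and 328 in preCFUE, 74.9 and 1328 in preMegE, and 176 and 1348 in preGM, and 0 of the 4 differed among fractions. Of the other foreign lists, 0 of 4 T and NK cell genes, 0 of 3 late red cell genes, 1 of 4 mature B and plasma cell genes (Sdc1) and 1 of 4 macrophage genes did, and their part in the results below was not tested.

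Levels are given as linear RMA intensity. Differences are on the log2(intensity + 16) scale, as first fraction minus second with ± SE, and understate the change of dim genes. Tests are limma's over all probe sets with Benjamini-Hochberg adjustment, and an adjusted p under 0.05 passes. By the F test over the 5 fractions, 6 of the 10 genes differed (Myb, Mybl2, E2f2, E2f8, Rb1 and Rbl2), where 32.3% of all 18193 named genes did. E2f1, E2f3, E2f4 and Rbl1 did not pass.

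**Figure D1:**
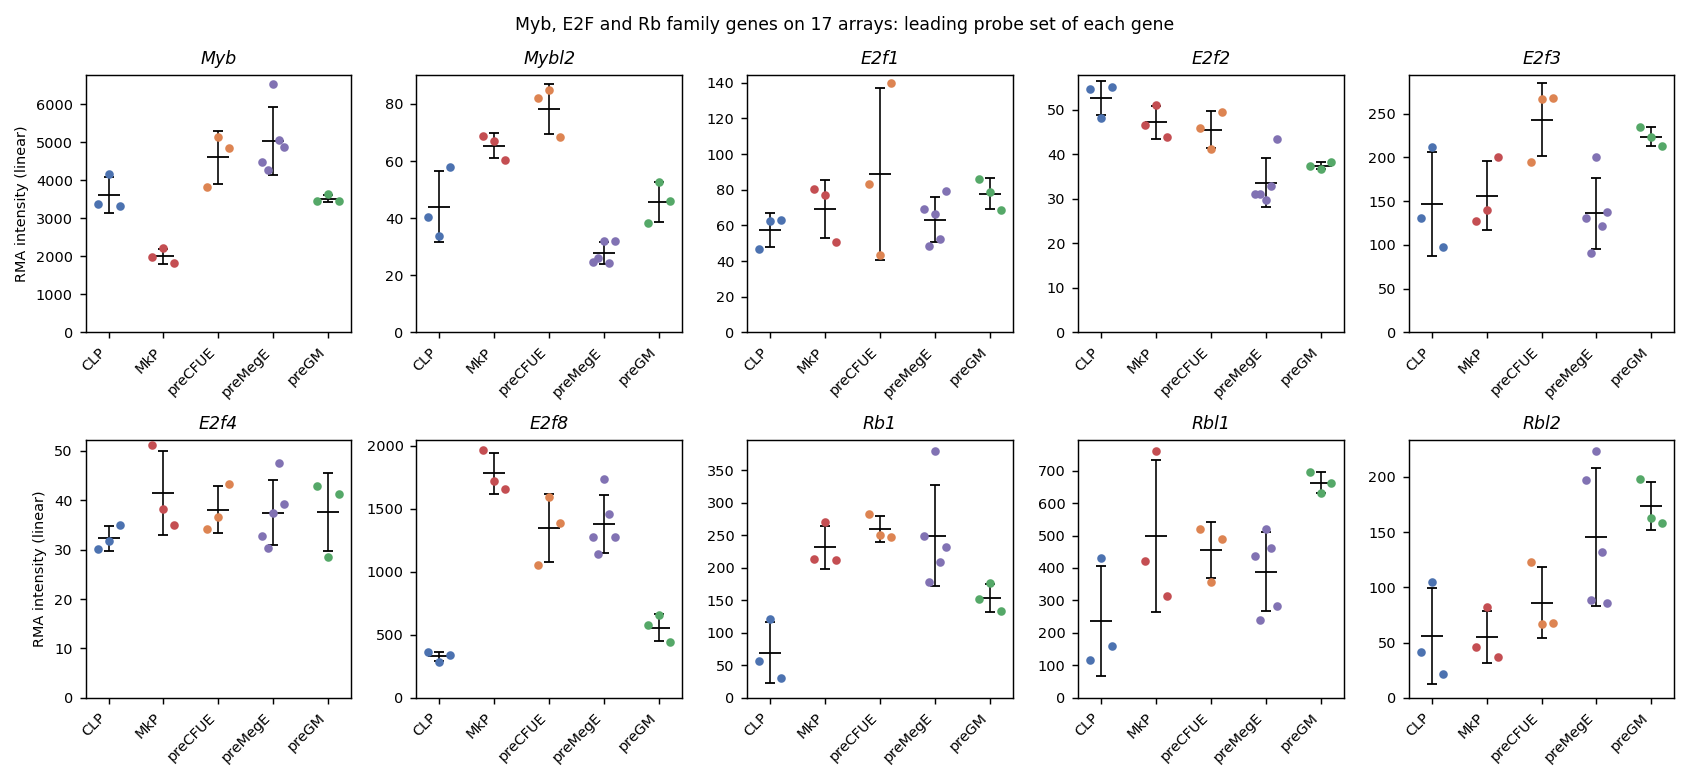
RMA intensity (linear y axes, each from 0) of the leading probe set of each of the 10 genes in the 5 fractions. Points are single arrays, the bar is the mean and the whiskers ± 1 SD (n = 5 for preMegE, n = 3 for each other fraction). Myb is lowest in MkP, Mybl2 lowest in preMegE, and E2f8 and Rb1 lowest in CLP.

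Myb was highest in preMegE and preCFUE and lowest in MkP. Its leading probe set, 1421317_x_at, read 3372, 4174 and 3338 in CLP, 1973, 2209 and 1832 in MkP, 3826, 5152 and 4856 in preCFUE, 4474, 4285, 6548, 5062 and 4875 in preMegE, and 3463, 3631 and 3465 in preGM. Every MkP array lay below every array of the other 4 fractions, and every preMegE array above every CLP and preGM array. Means were 3628 ± 473 in CLP, 2005 ± 191 in MkP, 4611 ± 696 in preCFUE, 5049 ± 894 in preMegE and 3520 ± 96.7 in preGM (SD).

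The drop in MkP was the largest Myb difference. MkP fell below preMegE (-1.31 ± 0.13 on the log2 scale, adjusted p = 2.76e-05) and below preCFUE (-1.19 ± 0.15, adjusted p = 0.000133), and both calls held in every alternative in which Myb could be tested. MkP was also below preGM (-0.81 ± 0.15, adjusted p = 0.00409), which quantile normalization of the arrays ended (-0.49, adjusted p = 0.0686). CLP exceeded MkP by 0.85 ± 0.15 (adjusted p = 0.00194; 0.74, adjusted p = 0.00836 without CLP replicate 2), which the mean over the 3 probe sets ended (0.74, adjusted p = 0.0611). PreMegE was above preGM (0.50 ± 0.13, adjusted p = 0.0422), a call lost when any 1 of the 3 preGM arrays or of preMegE replicates 3, 4 and 5 was left out (adjusted p up to 0.147), and without any of 4 arrays of other fractions. CLP was below preMegE (-0.47 ± 0.13, adjusted p = 0.0284; -0.57, adjusted p = 0.0123 without CLP replicate 2), but it was lost without CLP replicate 1, CLP replicate 3 or preMegE replicate 4 (adjusted p up to 0.129), and quantile normalization took the value to -0.04 (adjusted p = 0.881). The remaining neighbours in the order of levels, preMegE and preCFUE, preCFUE and CLP, and CLP and preGM, did not differ beyond their spread (adjusted p = 0.881, 0.13 and 0.9). MkP and CLP were lower than other fractions across many bright genes: over the 7740 genes with a mean above 50 the median difference was -0.26 for MkP against preMegE and -0.42 for CLP against preMegE, and quantile normalization took these to -0.0038 and -0.14.

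All 3 Myb probe sets gave the same lowest and highest fractions. The suffix x of the leading probe set marks probes that may also match other transcripts, so the others matter. Probe set 1450194_a_at read 569, 599 and 475 in MkP, against 2296, 2165, 3387, 2320 and 2364 in preMegE, a difference of -2.15 ± 0.27 (adjusted p = 0.000166). Probe set 1422734_a_at read 28.3, 32.3 and 31.7 in MkP, against 244, 155, 335, 251 and 208 in preMegE (-2.41 ± 0.30, adjusted p = 0.000207). In both, MkP and preMegE arrays did not overlap. Over the 17 arrays the 2 probe sets correlated with the leading one at 0.915 and 0.869. They parted from it in CLP, where they read 865, 1735 and 565, and 39.4, 123 and 28.4, replicate 2 being the highest in both. CLP was below preMegE (-1.37 ± 0.27 and -1.83 ± 0.30, adjusted p = 0.00296 and 0.000943), and without CLP replicate 2 the values were -1.80 and -2.32 (adjusted p = 3.18e-05 and 1.17e-05). CLP against MkP did not pass (0.78, adjusted p = 0.143, and 0.58, adjusted p = 0.387), nor did it without CLP replicate 2 (0.35, adjusted p = 0.356, and 0.09, adjusted p = 0.885). PreMegE against preGM also missed the threshold in both (0.95, adjusted p = 0.0565, and 1.01, adjusted p = 0.0831).

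**Figure D2:**
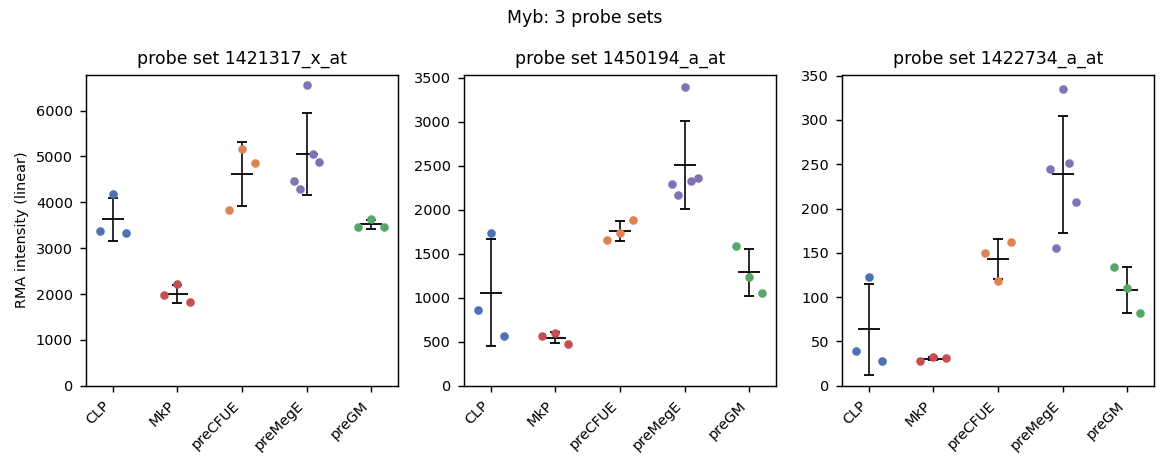
RMA intensity (linear y axes, each from 0) of the 3 Myb probe sets in the 5 fractions. Points are arrays, bars means and whiskers ± 1 SD (n = 5 for preMegE, n = 3 for each other fraction). In each panel MkP has the lowest mean and preMegE the highest, and MkP arrays lie below all preMegE arrays.

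Mybl2 was lowest in preMegE and highest in preCFUE. Its leading probe set, 1417656_at, read 40.3, 33.8 and 58.0 in CLP, 68.8, 67.1 and 60.4 in MkP, 82.0, 84.7 and 68.4 in preCFUE, 24.7, 25.9, 32.2, 24.2 and 32.0 in preMegE, and 38.4, 52.6 and 45.9 in preGM. All 5 preMegE arrays lay below all 12 arrays of the other fractions, and all MkP and preCFUE arrays lay above all preGM arrays. PreCFUE rose above preMegE by 1.11 ± 0.12 (adjusted p = 6.85e-05) and MkP by 0.90 ± 0.12 (adjusted p = 0.000327), and neither call was lost in an alternative that kept the gene. PreCFUE was also above preGM (0.62 ± 0.13, adjusted p = 0.00819) and CLP below preCFUE (-0.67 ± 0.13, adjusted p = 0.00248; -0.54, adjusted p = 0.00866 without CLP replicate 2). The call for CLP against preCFUE was lost when both probe sets were averaged (-0.34, adjusted p = 0.0501). It was also lost in the fit of only the 2 fractions (adjusted p = 0.0616). PreMegE was below preGM (-0.49 ± 0.12, adjusted p = 0.0254), a call lost without preGM replicate 2 or 3 or preMegE replicate 1, 2 or 4 (adjusted p up to 0.157). Quantile normalization (-0.44, adjusted p = 0.104), an intensity trend in the fit (adjusted p = 0.076) and averaging both probe sets (-0.27, adjusted p = 0.195) ended it too. CLP was above preMegE (0.44 ± 0.12, adjusted p = 0.0224; 0.56, adjusted p = 0.00486 without CLP replicate 2), a call lost without CLP replicate 3 or preMegE replicate 1 or 4 (adjusted p up to 0.139) and with array weights (adjusted p = 0.0922) or an intensity trend (adjusted p = 0.0519). CLP against MkP passed narrowly (-0.46 ± 0.13, adjusted p = 0.0493) and was lost without 15 of the 17 arrays, each left out alone, CLP replicate 2 among them (-0.33, adjusted p = 0.135). MkP against preCFUE (-0.21, adjusted p = 0.392), MkP against preGM (0.41, adjusted p = 0.0906) and CLP against preGM (-0.05, adjusted p = 0.832) did not pass. The second probe set, 1454946_at, was dimmer, with a mean of 30.0 beside 49.4 for the leading one, and did not pass the F test (adjusted p = 0.289). Its highest and lowest fractions were the same, but the MkP rise was not clear in it. There MkP averaged 29.5, below CLP (36.4), and MkP arrays from 26.2 overlapped preMegE arrays of up to 31.9. Its correlation with the leading probe set over the 17 arrays was 0.421.

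Of the activating E2F genes, E2f2 alone passed the F test, at low intensity. Its leading probe set, 1436434_at, read 54.7, 48.2 and 55.1 in CLP, 46.7, 51.2 and 43.8 in MkP, 45.9, 41.2 and 49.5 in preCFUE, 31.1, 31.2, 29.8, 32.9 and 43.4 in preMegE, and 37.3, 36.8 and 38.2 in preGM. CLP arrays lay above every preMegE and preGM array, and 1 preMegE array, replicate 5, reached the preCFUE range. CLP was above preMegE by 0.47 ± 0.08 (adjusted p = 0.00107) and above preGM by 0.36 ± 0.09 (adjusted p = 0.0229), with 0.52 (adjusted p = 0.00117) and 0.41 (adjusted p = 0.0111) without CLP replicate 2. The call against preGM was lost without CLP replicate 1 or 3 or preGM replicate 1 or 2 (adjusted p up to 0.0856), and under median centring, averaging of both probe sets, the Gapdh ratio as a covariate or an intensity trend (adjusted p = 0.0536, 0.0662, 0.0745 and 0.105). MkP exceeded preMegE (0.35 ± 0.08, adjusted p = 0.0168; lost without MkP replicate 1 or 2, adjusted p up to 0.0716). PreCFUE exceeded preMegE as well (0.31 ± 0.08, adjusted p = 0.0347), a call lost under quantile normalization (adjusted p = 0.0732) and without preCFUE replicate 1 or 3 or preMegE replicate 1, 2, 3 or 4 (adjusted p up to 0.184). CLP, MkP and preCFUE, next to each other in the order of levels, did not differ beyond their spread, and the second probe set, 1455790_at, did not pass the F test (adjusted p = 0.137).

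E2f3 was highest in preCFUE and preGM but did not pass (F test adjusted p = 0.0631). It read 130, 212 and 97.2 in CLP, 127, 140 and 201 in MkP, 195, 266 and 268 in preCFUE, 130, 90.3, 201, 122 and 138 in preMegE, and 234, 223 and 213 in preGM. PreMegE and preCFUE overlapped at 1 array each, and preGM arrays lay above all 5 preMegE arrays. PreCFUE against preMegE gave 0.79 ± 0.23 (adjusted p = 0.0723; 0.0324 in the fit without CLP replicate 2) and preMegE against preGM -0.69 ± 0.23 (adjusted p = 0.146). E2f1 read between 43.6 and 140 with no fraction apart (F test adjusted p = 0.651), its lowest and highest arrays both being preCFUE. A dim E2f1 probe set, 1447840_x_at, with a mean of 19.2, did pass, CLP being above preMegE by 0.32 ± 0.09 (adjusted p = 0.0229) and above preCFUE by 0.41 ± 0.10 (adjusted p = 0.00883), a pattern the other 2 E2f1 probe sets did not show. E2f4, the repressor partner of p107 and p130, had 1 probe set, 1451480_at, which lay between 28.6 and 51.1 on all 17 arrays and did not pass (F test adjusted p = 0.669).

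E2f8 had the largest difference of the 10 genes and separated the fractions into 3 levels. Its leading probe set, 1436186_at, read 359, 288 and 336 in CLP, 1963, 1719 and 1659 in MkP, 1058, 1597 and 1388 in preCFUE, 1279, 1145, 1735, 1460 and 1279 in preMegE, and 575, 654 and 439 in preGM. The CLP arrays lay below the preGM arrays, and those below all 11 arrays of MkP, preCFUE and preMegE. Means were 328 ± 36.5 in CLP, 1780 ± 161 in MkP, 1348 ± 272 in preCFUE, 1380 ± 228 in preMegE and 556 ± 109 in preGM (SD). Against preGM, MkP rose by 1.66 ± 0.18 (adjusted p = 3.33e-05), preCFUE by 1.25 ± 0.18 (adjusted p = 0.000276) and preMegE by 1.29 ± 0.16 (adjusted p = 0.000107). CLP was lower than MkP (-2.39 ± 0.18, adjusted p = 5.19e-07), preCFUE (-1.97 ± 0.18, adjusted p = 2.56e-06) and preMegE (-2.01 ± 0.16, adjusted p = 7.07e-07). Without CLP replicate 2 these 3 differences were -2.30, -1.89 and -1.93 (adjusted p = 5.28e-06, 1.82e-05 and 8.73e-06).

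Those 6 E2f8 differences were not lost in any alternative run. CLP against preGM was smaller (-0.72 ± 0.18, adjusted p = 0.0217; -0.64, adjusted p = 0.0353 without CLP replicate 2) and was lost under quantile normalization (-0.27, adjusted p = 0.479) and without CLP replicate 3 or preGM replicate 1 or 2 (adjusted p up to 0.0972). The 3 high fractions did not differ beyond their spread, with MkP against preMegE at 0.38 (adjusted p = 0.195), MkP against preCFUE at 0.41 (adjusted p = 0.177) and preCFUE against preMegE at -0.04 (adjusted p = 0.992). Quantile normalization raised MkP against preCFUE to 0.80 (adjusted p = 0.0268). The second E2f8 probe set, 1444319_at, had a mean of 13.2 and did not pass (F test adjusted p = 0.635).

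Rb1 was lowest in CLP. Its leading probe set, 1417850_at, read 56.4, 122 and 30.3 in CLP, 214, 270 and 212 in MkP, 283, 249.9 and 248 in preCFUE, 249, 178, 379, 209.6 and 232 in preMegE, and 152, 176 and 133 in preGM. Each CLP array was below each of the other 14 arrays, and preGM arrays were below all arrays of MkP, preCFUE and preMegE. CLP fell below preCFUE (-1.84 ± 0.31, adjusted p = 0.00075), preMegE (-1.74 ± 0.28, adjusted p = 0.00069), MkP (-1.67 ± 0.31, adjusted p = 0.00306) and preGM (-1.13 ± 0.31, adjusted p = 0.0357). Leaving out CLP replicate 2, the highest of the 3, made them -2.25, -2.15, -2.09 and -1.54 (adjusted p = 2.97e-05, 2.55e-05, 0.000114 and 0.00118). That left the CLP arrays with the more shortened RNA by the Gapdh ratio (5.12 and 4.08, against 3.00 in CLP replicate 2). The call against preGM was lost without CLP replicate 1 or 3 or preGM replicate 1 or 2 (adjusted p up to 0.147). That against MkP held with each array left out (adjusted p up to 0.0173) but was lost in the fit of only the 2 fractions. No pair among the other 4 fractions passed, preMegE against preGM giving 0.61 (adjusted p = 0.378). The second probe set, 1444400_at, averaged 7.59 and did not pass.

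Rbl1 and Rbl2 were highest in preGM, with wide spreads in other fractions. Rbl1, by probe set 1424156_at, read 117, 429 and 159 in CLP, 423, 760.2 and 313 in MkP, 521, 357 and 489 in preCFUE, 438, 239, 522, 463 and 282 in preMegE, and 697, 630.4 and 661 in preGM. CLP arrays lay below all preGM arrays, but MkP ranged across nearly all the others. CLP fell below preGM (-1.64 ± 0.41, adjusted p = 0.0244; -2.15, adjusted p = 0.00124 without CLP replicate 2), the 1 of 10 comparisons in which Rbl1 passed. That call was lost without CLP replicate 1 or 3 or preGM replicate 1 or 2 (adjusted p up to 0.0969). Of its 3 dimmer probe sets, 1425166_at passed the F test (adjusted p = 0.0361), being lower in CLP than in preCFUE (-0.88 ± 0.20, adjusted p = 0.00682), for which the leading probe set gave -1.10 (adjusted p = 0.0787). Without CLP replicate 2 these were -0.92 (adjusted p = 0.0107) and -1.61 (adjusted p = 0.00434).

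Rbl2, by probe set 1425981_a_at, read 41.2, 105 and 21.3 in CLP, 46.3, 82.1 and 36.8 in MkP, 123, 67.2 and 67.8 in preCFUE, 197, 88.3, 223, 132 and 86.1 in preMegE, and 198, 163 and 159 in preGM. CLP and MkP arrays lay below all preGM arrays, and CLP replicate 2 reached the preMegE range. CLP was below preGM (-1.57 ± 0.42, adjusted p = 0.0314; -2.03, adjusted p = 0.00309 without CLP replicate 2) and below preMegE (-1.25 ± 0.37, adjusted p = 0.0348; -1.72, adjusted p = 0.00372 without it). Both calls were lost without CLP replicate 1 or 3, the first also without preGM replicate 1 or 2 (adjusted p up to 0.137) and the second without preMegE replicate 1, 3 or 4 (adjusted p up to 0.207). MkP against preGM (-1.46 ± 0.42, adjusted p = 0.0545) and MkP against preMegE (-1.15 ± 0.37, adjusted p = 0.0932) did not pass, and both passed in the fit without CLP replicate 2 (adjusted p = 0.0212 and 0.0397). The second probe set, 1418146_a_at, did not pass the F test (adjusted p = 0.504).

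The pocket protein values were set beside the RNA shortening measure, the Gapdh ratio. The array with the lowest ratio of its fraction, the least shortened, was the highest of that fraction in 4 of 5 fractions for Rbl1 and Rbl2 and in 3 of 5 for Rb1. The same was so in 2 of 5 fractions for Myb and E2f3, in 1 for E2f1, E2f2 and E2f4, and in 0 for Mybl2 and E2f8. The most shortened array was the lowest of its fraction in 2 of 5 fractions for Rb1, Rbl2, E2f1 and E2f3. It was so in 1 for Rbl1, Mybl2, E2f4 and E2f8, and in 0 for Myb and E2f2. No such count over all genes is given beside these. In CLP the array with a ratio of 5.12 was above the one at 4.08 for Rb1 (56.4 and 30.3) and Rbl2 (41.2 and 21.3). CLP replicate 2, the highest CLP array for Rb1, Rbl1 and Rbl2, was that fraction's least shortened array.

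With the ratio as a covariate in the fit, CLP against preGM kept 2 of 5 calls, E2f8 and Rbl1 (-1.15, adjusted p = 0.0441). E2f2, Rb1 (-0.87, adjusted p = 0.111) and Rbl2 (-1.09, adjusted p = 0.0687) lost theirs. Against preMegE, CLP was still below in Rb1 (-1.58, adjusted p = 0.000881) and Rbl2 (-0.96, adjusted p = 0.0337). In CLP against MkP the genes passing were 5 in place of 4. The part of shortening in the pocket protein differences was not tested further.

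**Figure D3:**
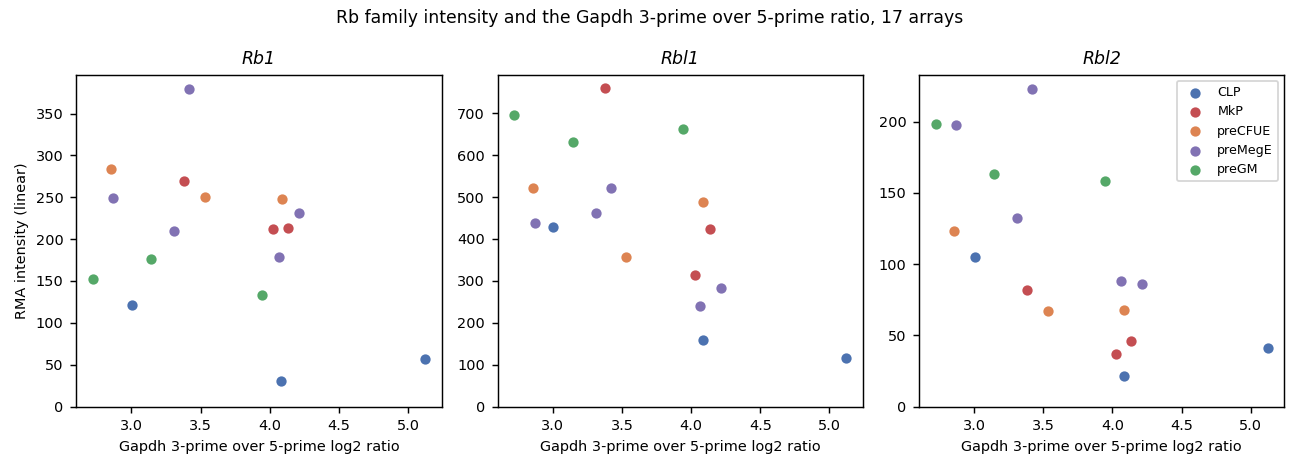
RMA intensity (linear y axis from 0) of Rb1, Rbl1 and Rbl2 on each of the 17 arrays against the log2 ratio of the 3-prime to the 5-prime Gapdh control probe set (x axis). Colours are fractions. The CLP array at a ratio of 3.00 is the highest CLP point in all 3 panels, and the CLP arrays at 4.08 and 5.12 lie below it.

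Counted by comparison, the genes split as follows, beside the share of all 18193 named genes that passed in each direction. CLP against preMegE had the most passing, 2 of 10 higher (Mybl2 and E2f2) and 4 lower (Myb, E2f8, Rb1 and Rbl2), where 8.2% of all genes were higher and 14.7% lower. In CLP against preGM 1 was higher (E2f2) and 4 lower (E2f8, Rb1, Rbl1 and Rbl2), where 4.17% were higher and 10.6% lower. Leaving out CLP replicate 3, preGM replicate 1 or preGM replicate 2 took that count to 0. In CLP against MkP 1 was higher (Myb) and 3 lower (Mybl2, E2f8 and Rb1), where 5.43% were higher and 5.84% lower. CLP against preCFUE gave 0 higher and 3 lower (Mybl2, E2f8 and Rb1), where 8.93% were higher and 18.2% lower. MkP against preMegE gave 2 higher (Mybl2 and E2f2) and 1 lower (Myb), where 3.56% were higher and 5.5% lower.

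In MkP against preCFUE Myb alone was lower and 9 genes did not pass, where 4.91% of all genes were higher and 9.3% lower, so that the members' share was close to the background. MkP against preGM had 1 higher (E2f8) and 1 lower (Myb), where 3.07% were higher and 6.59% lower. PreCFUE against preMegE had 2 higher (Mybl2 and E2f2) and 0 lower, where 4.19% were higher and 3.52% lower. PreCFUE against preGM had 2 higher (Mybl2 and E2f8) and 0 lower, where 5.01% were higher and 7.56% lower. PreMegE against preGM had 2 higher (Myb and E2f8) and 1 lower (Mybl2), where 2.53% were higher and 5.32% lower. Without CLP replicate 2 the members passing were 7 in CLP against preMegE, 6 in CLP against preGM, 4 in CLP against MkP and 5 in CLP against preCFUE. The shares of all named genes above are of the fit with all 17 arrays. None is given for the fit without CLP replicate 2, so whether these counts are particular to the members was not tested. Of the 31 differences that passed, 18 passed in each of the 17 fits that left out 1 array and 13 were lost in at least 1 of them. Over all alternatives 14 were never lost, 6 of E2f8, 3 of Mybl2, 2 of Myb, 2 of Rb1 and 1 of E2f2. Comparisons that name the same fraction share its arrays.

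**Figure D4:**
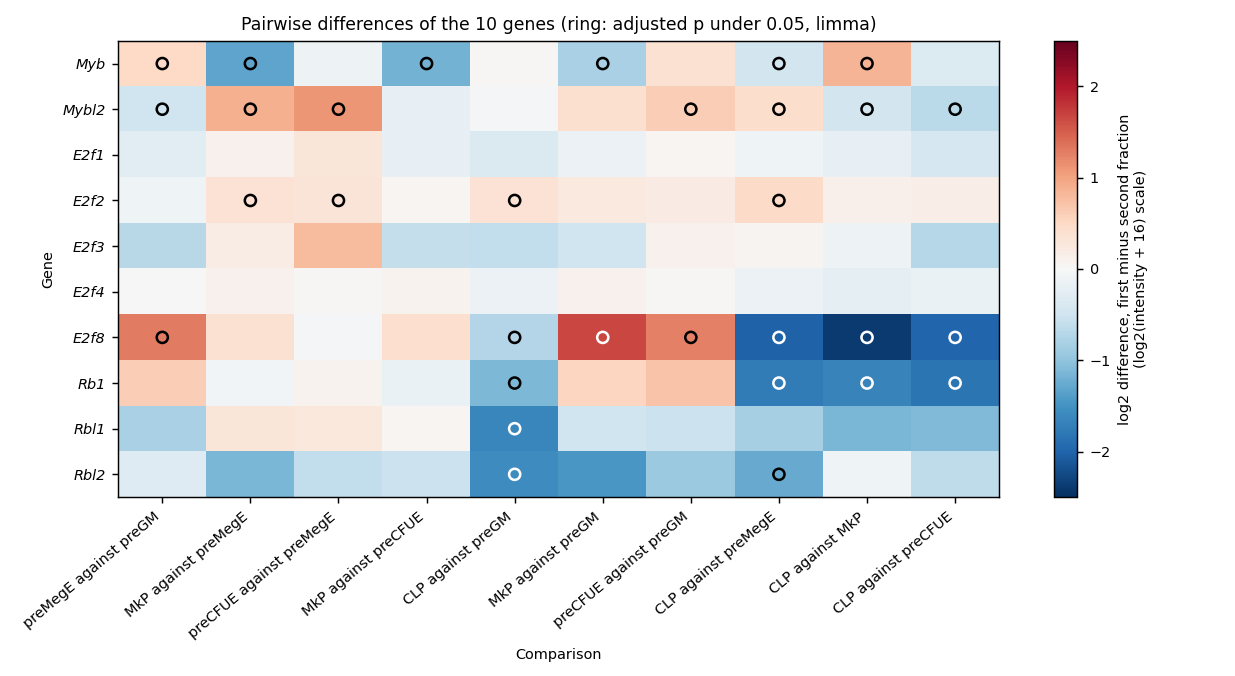
Log2 differences, first minus second fraction on the log2(intensity + 16) scale (colour; red higher, blue lower in the first), of the 10 genes (rows) in the 10 comparisons (columns), with a ring where the adjusted p was under 0.05. E2f8 and Rb1 are ringed in all 4 comparisons that start with CLP, while E2f1, E2f3 and E2f4 have no ring.

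Partners and relatives of these factors moved gene by gene. The F test passes in 32.3% of all named genes, the background for the counts that follow. Of 5 other E2F and DP genes, 3 passed the F test. E2f7, the second atypical E2F and the partner of E2f8 in repression, averaged 196 ± 14.8 in MkP and 46.5 ± 11.8 in preMegE (1.78 ± 0.19, adjusted p = 5.43e-05), and it was higher in MkP than in preCFUE (1.18 ± 0.22, adjusted p = 0.0031). E2f7 was lower in preMegE than in preGM (-0.93 ± 0.19, adjusted p = 0.00912), where E2f8 was higher. Tfdp2, a DP partner, averaged 299.5 ± 33.4 in preCFUE and 509.9 ± 113 in preMegE (-0.72 ± 0.16, adjusted p = 0.0164). E2f5 did not pass in any of the 10 comparisons. Of the 6 MuvB and Foxm1 genes, 1 passed the F test: Lin54, the DNA-binding MuvB subunit, averaged 53.2 ± 19.9 in CLP and 172 ± 40.2 in preCFUE (-1.46 ± 0.28, adjusted p = 0.00168). Rbbp4, the brightest of that list, did not pass in any comparison. Of 4 Myb relatives and coactivators, 2 passed the F test. Mybbp1a, a Myb-binding nucleolar protein, averaged 1895 ± 293 in preCFUE and 1183 ± 44.5 in preMegE (0.66 ± 0.10, adjusted p = 0.00112), and the coactivator gene Crebbp 350.0 ± 35.2 in MkP and 555.6 ± 107 in preMegE (-0.63 ± 0.15, adjusted p = 0.0204).

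Cyclins with their kinases, and the inhibitors of those kinases, act on the pocket proteins. Of 8 G1 cyclin and kinase genes 3 passed the F test, a share near the 32.3% of all named genes. Ccne1, which encodes cyclin E1, averaged 801 ± 189 in preCFUE and 107 ± 18.7 in preMegE (2.72 ± 0.23, adjusted p = 6.54e-06), and MkP was below preCFUE in it (-1.95 ± 0.26, adjusted p = 0.0002). Ccnd3, a D cyclin, was higher in MkP than in preCFUE (1.10 ± 0.18, adjusted p = 0.00153) and than in preMegE (0.69 ± 0.16, adjusted p = 0.022). Cdk6, the brightest of the list, was lower in preCFUE than in preMegE (-0.74 ± 0.20, adjusted p = 0.0442). Of 7 genes for inhibitors of cyclin-dependent kinases, 4 passed. Cdkn1a (p21) averaged 260 ± 46.1 in CLP and 58.7 ± 9.43 in preMegE (1.88 ± 0.11, adjusted p = 3.44e-08), and preCFUE was below preMegE in it (-0.57 ± 0.11, adjusted p = 0.00653). Cdkn1b (p27) averaged 88.2 ± 2.99 in MkP, 81.0 ± 17.1 in preCFUE and 183 ± 11.7 in preMegE, both being below preMegE (-0.93 ± 0.16, adjusted p = 0.00248 for MkP and -1.05 ± 0.16, adjusted p = 0.00107 for preCFUE). Cdkn2d (p19) averaged 20.3 ± 5.16 in preCFUE and 65.8 ± 5.93 in preMegE (-1.18 ± 0.21, adjusted p = 0.00378).

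The known target genes of E2F and of Mybl2 with MuvB separated preMegE from both of the stages after it. Of 28 S phase genes under E2F control listed, 26 were measured and 18 passed the F test; of 25 genes of G2 and M phase, 24 were measured and 23 passed. Against preMegE, preCFUE had 14 of 26 S phase genes higher and 0 lower (median 0.77), and MkP 7 higher and 0 lower (median 0.41), where 4.19% and 3.56% of all genes were higher. In the G2 and M phase list preCFUE had 18 of 24 higher (median 1.06) and MkP 11 of 24 (median 0.91), with 0 lower in both. Over all named genes the median difference lay within -0.011 and 0.027 in all 10 comparisons, but 25 of the 26 S phase genes and all 24 of the other list had a mean above 50. Over the 7740 named genes above that level the median was 0.07 in preCFUE against preMegE and -0.26 in MkP against preMegE, and it is given below as the median of bright genes. Earlier results of these data show part of this pattern, so it is no independent support.

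Rrm2, a subunit of the enzyme that makes deoxynucleotides, averaged 1361 ± 225 in MkP, 1433 ± 213 in preCFUE and 432 ± 70.4 in preMegE (1.62 ± 0.15, adjusted p = 9.8e-06 for MkP and 1.69 ± 0.15, adjusted p = 9.01e-06 for preCFUE). Mcm10, a replication initiation factor, averaged 493 ± 14.4 in preCFUE and 164 ± 22.4 in preMegE (1.51 ± 0.13, adjusted p = 6.01e-06). Ccna2, cyclin A2, averaged 1012 ± 59.8 in MkP and 373 ± 65.0 in preMegE (1.42 ± 0.15, adjusted p = 5.55e-05). Not all targets moved: Pcna, the sliding clamp, averaged 2894 ± 963 in preCFUE and 2142 ± 389 in preMegE (0.40 ± 0.47, adjusted p = 0.911), and Mcm7 gave 0.05 ± 0.14 (adjusted p = 0.88) in MkP against preMegE. Among G2 and M phase genes, the spindle checkpoint kinase gene Bub1 averaged 296 ± 9.97 in preCFUE and 73.1 ± 26.8 in preMegE (1.87 ± 0.34, adjusted p = 0.00375). The ubiquitin-conjugating enzyme gene Ube2c averaged 389 ± 113 in MkP and 127 ± 28.5 in preMegE (1.49 ± 0.18, adjusted p = 0.000155). Mki67 did not pass in MkP against preMegE (0.76 ± 0.25, adjusted p = 0.0904).

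The 2 later stages, MkP and preCFUE, were also set against each other. MkP had 0 of 26 S phase genes higher and 6 lower than preCFUE, where 4.91% of all genes were higher and 9.3% lower. The S phase median of -0.37 lay close to that of bright genes (-0.34). In the G2 and M phase list 0 of 24 were higher and 1 lower (median -0.14), no more than the background. Quantile normalization gave 1 S phase gene higher and 0 lower, and 2 G2 and M phase genes higher and 0 lower. The difference between the lists was not tested. Cdc6, a replication licensing factor, averaged 183 ± 29.7 in MkP and 647 ± 119 in preCFUE (-1.73 ± 0.46, adjusted p = 0.029). PreMegE had 0 S phase genes higher and 8 lower than preGM (median -0.54, beside -0.03 for bright genes, where 5.32% of all genes were lower), Rrm2 (-1.14 ± 0.15, adjusted p = 0.000166) and the licensing factor Cdt1 (-0.97 ± 0.17, adjusted p = 0.00187) among them. In the G2 and M phase list 1 was higher (Cks2, 0.99 ± 0.15, adjusted p = 0.000576) and 1 lower (Bub1b, -0.60 ± 0.13, adjusted p = 0.00951) in preMegE than in preGM.

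CLP was low in the G2 and M phase list beside MkP and preCFUE. It had 0 of 24 higher and 20 lower than MkP (median -1.35, beside -0.16 for bright genes) and 1 higher and 22 lower than preCFUE (median -1.45, beside -0.50), where 5.84% and 18.2% of all genes were lower. Against preMegE it had 2 higher and 6 lower, and the median of -0.43 was that of bright genes (-0.42), with 14.7% of all genes lower. Against preGM it had 0 higher and 7 lower (median -0.70, beside -0.48 for bright genes), with 10.6% lower. Under quantile normalization the counts were 1 higher and 22 lower against MkP, 1 and 19 against preCFUE, 2 and 4 against preMegE, and 1 and 3 against preGM. Cks2, which binds cyclin-dependent kinases, averaged 510.9 ± 34.0 in CLP and 2035 ± 227 in preMegE (-1.95 ± 0.15, adjusted p = 4.11e-07). Kif23, a kinesin of the midbody, went the other way at 322.5 ± 68.4 in CLP and 82.5 ± 19.6 in preMegE (1.79 ± 0.27, adjusted p = 0.000487). In the S phase list CLP had 0 higher and 14 lower than preCFUE, 0 and 6 against MkP, 3 and 0 against preMegE, and 0 and 9 against preGM. Quantile normalization gave 0 and 8, 0 and 8, 8 and 0, and 0 and 1. Without CLP replicate 2 those S phase counts were 0 and 19, 0 and 12, 3 and 7, and 0 and 14. In the G2 and M phase list they were 1 and 22, 0 and 21, 2 and 9, and 0 and 11 without CLP replicate 2. The share of all genes past the test in that fit is not given beside these counts. Whether the shifts are particular to the lists was not tested.

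**Figure D5:**
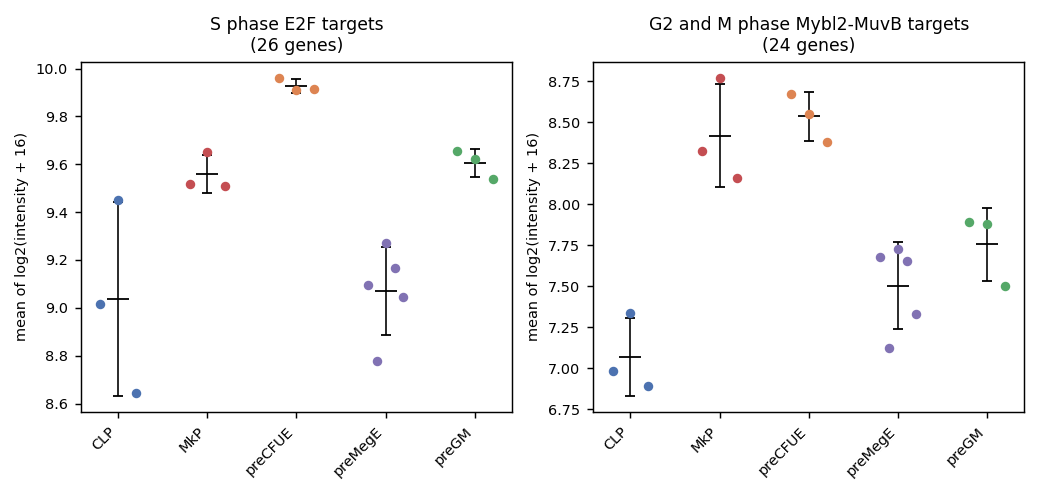
Mean of log2(intensity + 16) over the measured genes of each target list on each array, for the S phase list (26 genes) and the G2 and M phase list (24 genes); the y axes do not start at 0. Points are arrays, bars means and whiskers ± 1 SD (n = 5 for preMegE, n = 3 for each other fraction). S phase means are 9.91 to 9.96 in preCFUE and 8.78 to 9.27 in preMegE, and G2 and M phase means 6.89 to 7.34 in CLP and 8.16 to 8.77 in MkP.

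Promoter letters were counted in both target lists. Of 23 S phase genes with a RefSeq promoter, 9 held the E2F motif, 9 the E2F core and 4 the CHR, and of 21 G2 and M phase genes 0 held the E2F motif, 7 the E2F core and 15 the CHR. The 2 lists thus held the core in like numbers. All mouse promoters held the E2F motif in 1.56%, the core in 11.3% and the CHR in 17.9%, the shares given above with the printed sequences. These are shares of single promoters, while a gene was counted if any of its promoters held the letters. The target genes had been listed for their known control, so their letters describe the lists.

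Of 8 genes that c-Myb is known to control in blood cells, 7 passed the F test, which 32.3% of all named genes passed, with changes in both directions. In MkP, where Myb was lowest, Kit, the stem cell factor receptor, averaged 185 ± 57.4 against 681 ± 180 in preMegE (-1.79 ± 0.25, adjusted p = 0.000559), and Myc averaged 229.6 ± 10.4 against 659.9 ± 165 (-1.43 ± 0.24, adjusted p = 0.0023). Bcl2, a survival factor, went the other way, at 846 ± 131 in MkP and 411 ± 96.1 in preMegE (1.03 ± 0.19, adjusted p = 0.00512). PreMegE had 0 of the 8 higher and 4 lower than preGM, where 2.53% of all genes were higher and 5.32% lower, among them Cd34 (42.7 ± 7.84 in preMegE and 1878 ± 410.3 in preGM) and Bcl2 (-1.77 ± 0.19, adjusted p = 3.4e-05), while Myb itself was higher there. Kit and Il7r are gate genes, and Cd34 and Elane mark lineages, so these counts are not readings of Myb activity alone. Of 7 of these genes with a RefSeq promoter, 4 held the Myb motif in any of their promoters, beside 23.3% of all single promoters, an unlike unit.

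Across the 17 arrays, correlations of log2(intensity + 16) describe which genes ran together; the points share fractions and arrays, and no test was made. E2f8 and Rb1 had the highest correlation of any pair of members (0.824), followed by Rbl1 and Rbl2 (0.697), and E2f2 and Rbl2 the lowest (-0.749). E2f3 correlated with the mean of the S phase list at 0.828, the highest of the 10 genes, followed by Rbl1 (0.674) and Mybl2 (0.657). With the G2 and M phase list Mybl2 (0.686), Rb1 (0.685), E2f8 (0.636) and Rbl1 (0.626) were close to each other. Myb gave -0.118 with the S phase list and -0.262 with the other. Among all named genes, the 3 closest to Myb were Atp13a3 (0.966), Gramd4 (0.929) and Golm1 (0.925). Those closest to Mybl2 were all genes of replication or mitosis: Cenpm (0.912), which encodes a centromere protein, Fen1 (0.900), the flap endonuclease, which is itself in the S phase list, and Pkmyt1 (0.894), a kinase that restrains entry into mitosis. E2f8 was closest to Slc24a3 (0.971), Zfpm1 (0.963), which encodes the GATA partner FOG1, and Nomo1 (0.959). Rb1 was closest to Tmem9b (0.958), Adk (0.956) and Prkar2b (0.951), and Rbl2 to Rlim (0.974), Atg12 (0.952) and Chic2 (0.951). For E2f2 the 3 closest, 4930402D18Rik (0.877), Itgb6 (0.875) and 8030442B05Rik (0.870), had mean intensities of 9.61 to 10.4, among the dim probe sets of the array.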

How the data were processed

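RNA of 17 sorted samples in 5 fractions, each array placed by the gate in its title, was hybridised to Affymetrix 3-prime arrays. Per the series' design text the RNA had been amplified by repeated in vitro transcription, and the authors summarised the probes with RMA, which the submitters' processing notes also name; its version is not given in the sources used here. The table deposited by the authors holds RMA intensity back on a linear scale for each probe set. A dChip filter on the SD over the mean above 0.5, named in the design text, was not applied to the deposited table, which holds 45101 probe sets. Amplification from the 3-prime end can depress transcripts whose probes lie far from that end. The table has no detection calls, 47.3% of values lay under 16, and 3 to 5 arrays a fraction limit the precision.

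Of these probe sets 64 controls were left out, 34945 had 1 gene symbol in the platform annotation, and 932 had several and were not named. All 45037 others entered 1 limma 3.58.1 fit (R 4.3.3) of log2(intensity + 16) with a term per fraction, 10 pairwise contrasts and a moderated F test, with Benjamini-Hochberg adjustment over all probe sets per comparison. The scripts were tested on simulated data. For MkP against preMegE, 44% of simulated log2 changes of 1 and 96% of changes of 2 were recovered, so a difference that did not pass may still be real. The figures used matplotlib 3.10.9 (Python 3.11.15). Genes named were the 10 members with all probe sets, the 3 genes most correlated with each member past the F test, and from each list the genes past the test that changed most (up to 3) and the brightest gene that did not pass. The members and lists were chosen with earlier results of these data known. Alternatives were other offsets (1 and 64), quantile normalization, median centring, low-intensity and SD filters, the mean over probe sets, 1 probe set per gene in the adjustment, an intensity trend, array weights, the Gapdh ratio as covariate, replicate number as a block, only the 2 fractions compared, and each array left out. Replicate numbers stand in the titles. Of 30 same-numbered pairs, 12 correlated above 0.1 in their deviations from the fraction means (range -0.509 to 0.528), and all 3 pairs did so in CLP against MkP only, so the fit without the block is reported.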

Additional observations from a re-analysis of the deposited data

Results flagged for a closer look

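In 3 of 23 probe sets tested for an array far from the other preMegE arrays, the only fraction with enough arrays for that check, 1 array stood apart by Dixon's criterion at 0.71 of the range. Chance would mark about 1 in 20. Myb probe set 1450194_a_at read 3387 in preMegE replicate 3, with the next array at 2364 and a gap of 0.837 of the range. E2f2 read 43.4 in preMegE replicate 5 by its leading probe set, with the next array at 32.9 (0.776). Rbl1 probe set 1425166_at read 30.6 in preMegE replicate 3, with the next array at 18.6 (0.733).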

How the results depend on the processing

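Counts of the 10 genes past the test moved by over 1.5 times under these settings. Under the SD filter, which left E2f8 and Rbl2 alone to test, they were 2 for any difference among the 5 fractions, 1 in preMegE against preGM, 1 in MkP against preMegE, 0 in preCFUE against preMegE, 0 in MkP against preCFUE, 2 in CLP against preGM, 1 in preCFUE against preGM, 2 in CLP against preMegE, 1 in CLP against MkP and 1 in CLP against preCFUE. With an intensity trend they were 1 in preMegE against preGM and 1 in preCFUE against preMegE. With the replicate block they were 1 in preMegE against preGM, 1 in CLP against preGM and 3 in CLP against preMegE, and in CLP against MkP the block left 3. The block changed no other count of members by over 1.5 times. Of the target lists, the block left 5 S phase and 5 G2 and M phase genes in MkP against preMegE and 9 and 7 in preCFUE against preMegE, where quantile normalization gave 16 and 20 in MkP against preMegE. Offset 1 gave 1 in preCFUE against preMegE. Quantile normalization gave 1 in preCFUE against preMegE, 2 in MkP against preCFUE and 3 in CLP against preGM. Fits of only the 2 fractions gave 1 in preCFUE against preMegE, 0 in CLP against preGM, 3 in CLP against preMegE and 2 in CLP against MkP. Array weights gave 2 in MkP against preCFUE, 4 in MkP against preGM, 6 in preCFUE against preGM and 3 in CLP against preMegE. The Gapdh covariate gave 2 in CLP against preGM, the mean over probe sets 2 in CLP against MkP and 5 in CLP against preCFUE, and the low filter 5 in CLP against preCFUE. Apart from the smaller fits and filters, the cause was not tested.

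Leaving out 1 array gave 5 to 8 genes for any difference among the 5 fractions, 1 to 3 in preMegE against preGM, 2 to 4 in MkP against preMegE, 1 to 3 in preCFUE against preMegE, 1 in each fit in MkP against preCFUE, 0 to 6 in CLP against preGM, 2 to 4 in MkP against preGM, 2 in each fit in preCFUE against preGM, 3 to 7 in CLP against preMegE, 3 to 4 in CLP against MkP and 3 to 5 in CLP against preCFUE. CLP against preGM had 0 without preGM replicate 1, preGM replicate 2 or CLP replicate 3, so none of its 5 calls was kept in those fits. Each of them also left fewer arrays in a compared fraction, and why the calls were lost was not tested. No difference that passed changed sign. Among those that did not pass, Myb in CLP against preGM turned to -0.052 under median centring and -0.40 as the mean over probe sets, and ran from -0.069 to 0.092 with 1 array left out. Myb in preCFUE against preMegE ran from -0.21 to 0.0029. Mybl2 in CLP against preGM turned to 0.10 under quantile normalization and 0.14 as the mean over probe sets, and ran from -0.21 to 0.072. E2f2 in MkP against preCFUE turned to -0.0098 under median centring and -0.055 as the mean over probe sets, and ran from -0.012 to 0.087. E2f8 in preCFUE against preMegE ran from -0.17 to 0.12.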
